A study of Rattus norvegicus with 16 samples.

Results

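The 10 genes described here encode enzymes and receptors of the prostaglandin and leukotriene pathways in rat, and were chosen by name: Ptgs1, Ptgs2, Ptges, Ptgis, Ptger2, Ptger4, Alox5, Alox5ap, Alox15 and Lta4h. All 10 were measured, among 17245 genes in all. Both pathways start from arachidonic acid released from membranes by phospholipases. The cyclooxygenases encoded by Ptgs1 and Ptgs2 turn it into prostaglandin H2, from which terminal synthases make prostaglandin E2, a driver of pain, vascular leak and bone turnover, and prostacyclin, a vasodilator that inhibits platelets. The 5-lipoxygenase branch instead yields leukotriene B4, a neutrophil attractant, and in bone wounds both branches are active while inflammation gives way to bone formation.

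The study placed titanium implants in rat tibiae and measured RNA of the cells that stayed on the implants after a rinse. AT-I implants carried nanoscale surface features, and AT-II implants were microrough without them. All animals were male Sprague Dawley rats, 8 in total with 4 per day, and each bore both surfaces, with 2 AT-I implants on one side and 2 AT-II on the other, so that 1 RNA sample pools 2 implants. The groups were AT-I at day 4, AT-II at day 4, AT-I at day 2 and AT-II at day 2 after surgery, with 4 arrays each. Every animal received ketoprofen, an inhibitor of cyclooxygenase activity, at 5 mg/kg once daily for 48 hours after surgery. The day after surgery and the time since the last dose therefore cannot be told apart, and no untreated bone or animal without the drug was analysed here.

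The 16 arrays give log2 expression values between 1.82 and 14.01, and the number of arrays limits the precision. AT-II day 2 replicates 2 and 3 agreed more closely than any of the other pairs among 120: over the most variable bright rows their differences had an SD of 0.109 on the log2 scale, against 0.294 in the next closest pair. They were averaged, which leaves 15 samples and 3 in the AT-II day 2 group. The day 2 samples numbered 1 on both surfaces stood above the others in Ptgs2 and Ptges, and the differences and correlations of these 2 genes are given with and without both. These 2 samples also held the lowest means of their groups for osteoblast (7.14 on AT-I and 7.31 on AT-II), stromal (8.25 and 8.96) and macrophage markers (9.34 and 9.79). The labels call the cells only tibial. On AT-I all 9 osteoblast markers rose by day 4 and 4 of 7 fibroblast and stromal markers did, on AT-II 8 of 9 and 2 of 7. The mean of the 11 neutrophil markers lay between 10.43 and 11.26 in all samples of both days. Their difference between day 4 and day 2 was negative for 9 of 11 on each surface. Its median was -0.31 on AT-I and -0.24 on AT-II, against -0.05 for all genes on both. Replicate numbers are not linked to animals in the labels, and p-values measure the spread between samples.

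Between day 4 and day 2, Ptgis was the member that rose, on both surfaces, and Ptger2 fell on AT-I. On the brighter of its rows, Ptgis was 4.72-fold higher at day 4 on AT-I and 4.15-fold higher on AT-II. Ptger2 stood at 0.423 times its day 2 level on AT-I. Ptgs2 had the widest spread of the 10 and missed the threshold, as did Ptges, the leukotriene genes, Alox15, Ptgs1 and Ptger4. Each gene was tested with limma across all genes, with a Benjamini-Hochberg adjusted p under 0.05 as the threshold. On AT-I 1 of 10 members rose and 1 fell, where 8.84% of all genes rose and 2.66% fell (11.5% in either direction). On AT-II 1 of 10 rose and 0 fell, where 3.13% of all genes rose and 0.203% fell (3.33% in either direction), and 4 of the 10 had an unadjusted limma p under 0.05, against 13% of all genes. On AT-I that count was 5 of 10, against 27.9%. With all 16 arrays counted separately, 3 of 10 members passed on AT-I, where 13.1% of all genes did, and 2 of 10 on AT-II, where 4.92% did. Of the genes that passed, 76.9% were higher at day 4 on AT-I and 93.9% on AT-II. When arrays were centred on their median these shares were 39.7% and 71.9%, and the median of all genes moved to -0.21 on AT-I and -0.16 on AT-II, against -0.05 on both without centring.

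The day 4 and day 2 samples did not overlap for 2 of the 10 members on AT-I, Ptgis and Ptger2, against 15.3% of all genes. By direction 1 was higher, against 11.3% of all genes, and 1 lower, against 4.01%. On AT-II they did not overlap for 4 of 10, Ptgis, Ptger2, Alox5ap and Lta4h, against 16.4% of all genes. Here 1 was higher, against 8.74% of all genes, and 3 were lower, against 7.63%. The difference was negative for 9 of 10 members on each surface, with a median of -0.39 log2 units on AT-I and -0.42 on AT-II, where the median of all genes was -0.05 on both. The exact two-sided permutation test over samples cannot go below 0.0286 with 4 against 4 samples or 0.0571 with 4 against 3. None of its 40 tests passed after adjustment, the smallest adjusted p being 0.254.

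**Figure D1:**
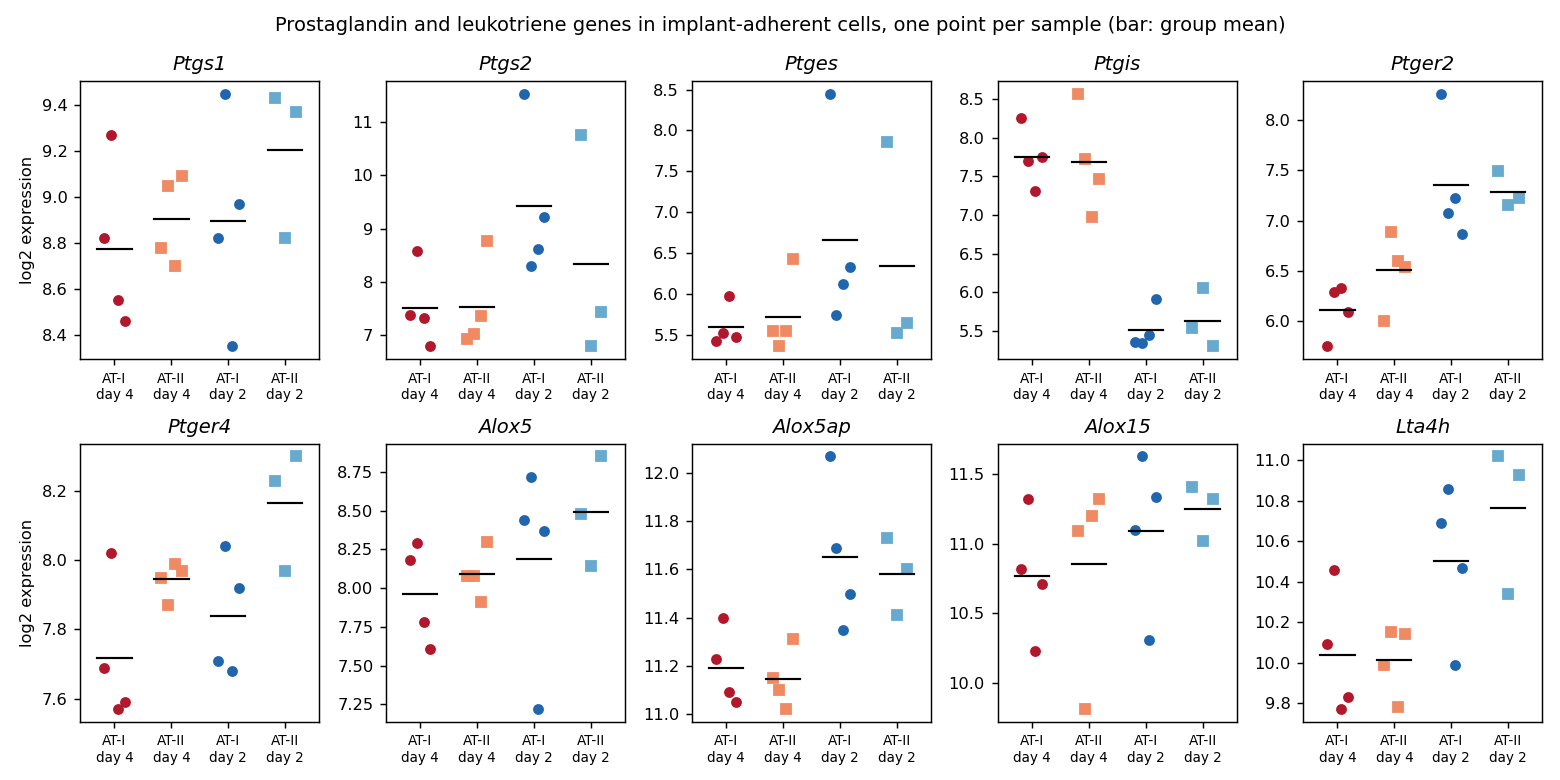
Log2 expression of each of the 10 genes (vertical axis) in every sample, with day 4 left of day 2 and AT-I left of AT-II; points are samples and bars are group means. The Ptgis points of day 4 lie above all those of day 2, the Ptger2 points of day 4 lie below those of day 2 within each surface, and the Ptgs2 points of day 2 spread from 6.78 to 11.54.

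Prostaglandin synthesis begins with the cyclooxygenases. Ptgs1 encodes the constitutive enzyme, abundant in platelets, and Ptgs2 encodes the form induced by cytokines and injury. Ptgs1 was 8.82, 9.27, 8.55 and 8.46 at day 4 and 8.82, 9.45, 8.35 and 8.97 at day 2 on AT-I, all on the log2 scale. On AT-II its values were 8.78, 9.05, 8.70 and 9.09 at day 4 and 9.43, 9.37 and 8.82 at day 2. The days overlapped on both surfaces, with differences of -0.13 ± 0.22 (SE, adjusted p = 0.737, limma) on AT-I and -0.30 ± 0.24 (adjusted p = 0.685) on AT-II.

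Ptgs2 was 7.37, 8.57, 7.31 and 6.78 on AT-I at day 4, against 11.54, 8.30, 8.62 and 9.22 on AT-I at day 2. On AT-II it was 6.92, 7.02, 7.36 and 8.77 at day 4, against 10.76, 7.43 and 6.78 at day 2. The 2 highest samples of all were the day 2 samples numbered 1, one on each surface. On AT-I only replicate 2 of day 4 reached the day 2 range, and on AT-II the day 2 range held all 4 day 4 samples. The difference on AT-I was -1.91 ± 0.80 log2 units (0.266 times, 95% confidence interval -3.61 to -0.21), with an adjusted p of 0.134 by limma and an exact permutation p of 0.0571. On AT-II it was -0.81 ± 0.86 (95% confidence interval -2.64 to 1.03, adjusted p = 0.784). Without both day 2 samples numbered 1, the difference was -1.20 on AT-I (adjusted p = 0.124, limma) and 0.41 on AT-II (adjusted p = 0.912). The SD of Ptgs2 over the 15 samples was 1.45, at percentile 99.8 of all genes.

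Ptges encodes the inducible microsomal prostaglandin E synthase, which works together with the Ptgs2 enzyme. It was 5.43, 5.52, 5.98 and 5.48 on AT-I at day 4, against 8.45, 5.74, 6.12 and 6.33 on AT-I at day 2. Its AT-II values were 5.55, 5.36, 5.55 and 6.43 at day 4, against 7.86, 5.64 and 5.52 at day 2. The day 2 samples numbered 1 were again the highest, and the remaining samples lay between 5.36 and 6.43. The difference was -1.05 ± 0.54 on AT-I (SE, adjusted p = 0.214, limma) and -0.62 ± 0.58 on AT-II (adjusted p = 0.745). Without the day 2 samples numbered 1 it was -0.46 (adjusted p = 0.261) and 0.14 (adjusted p = 0.955).

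Across the 15 samples Ptgs2 and Ptges had a Pearson r of 0.93, and 0.92 after the group means were removed. Both followed the mean of 15 genes listed as inducers of Ptgs2, such as cytokines and transcription factors, with r of 0.94 and 0.92, or 0.96 and 0.91 within groups. The list also holds Nfkbia, which encodes an inhibitor of NF-kB and was 12.66 and 12.2 in the AT-I and AT-II day 2 samples numbered 1. Without the day 2 samples numbered 1 (13 samples), Ptgs2 and Ptges had an r of 0.76, or 0.66 within groups. Their r with the inducers was then 0.78 and 0.62, or 0.94 and 0.57 within groups. These coefficients are descriptions over samples that share arrays and group structure. The mean of the inducer list was 10.09 in AT-I day 2 replicate 1 and 9.58 in AT-II day 2 replicate 1, and between 7.92 and 8.87 elsewhere. Both genes also ran against stromal markers (-0.81 and -0.87 within groups), osteoblast markers (-0.81 and -0.83) and macrophage markers (-0.66 and -0.84). Without the day 2 samples numbered 1 these were -0.33 and -0.12, -0.38 and -0.39, and 0.14 and -0.33. The part of inducers and of cell composition in the levels of Ptgs2 and Ptges was not tested.

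The 250 bases before the RefSeq start sites of these 2 genes are shown because both genes stood highest in the same samples. They come from the GRCr8 assembly and are written 5′ to 3′ on the gene's strand, for Ptgs2 from chr13:64713813-64714062 on the plus strand and for Ptges from chr3:34586988-34587237 on the minus strand. Capitals mark matches to the motifs searched, on both strands.
Ptgs2: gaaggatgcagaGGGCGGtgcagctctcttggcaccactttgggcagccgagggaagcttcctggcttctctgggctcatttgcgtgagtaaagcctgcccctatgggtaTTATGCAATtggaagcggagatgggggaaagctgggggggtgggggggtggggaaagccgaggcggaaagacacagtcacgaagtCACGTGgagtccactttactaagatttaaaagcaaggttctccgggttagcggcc
Ptges: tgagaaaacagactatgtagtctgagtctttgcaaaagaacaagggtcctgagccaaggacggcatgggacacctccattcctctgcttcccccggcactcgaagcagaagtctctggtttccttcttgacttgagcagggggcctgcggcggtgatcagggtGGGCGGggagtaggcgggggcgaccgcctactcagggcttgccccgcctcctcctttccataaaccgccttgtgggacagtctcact
The Ptgs2 stretch held a GC box (GGGCGG) 238 to 233 bases before the start, a C/EBP motif (TTNNGNAAT) 140 to 132 bases before it and a palindromic E-box (CACGTG) 55 to 50 bases before it. The Ptges stretch held a GC box 87 to 82 bases before the start. Of 33469 promoters of that length, 30.5% held the GC box, 10.9% the C/EBP motif and 5.59% the E-box. The cAMP response element (TGACGTCA, 1.59% of promoters), the AP-1 motif (TGANTCA, 6.34%), the TATA box (TATAAA, 12.9%) and the NF-kB motif (6.33%) had no match in these stretches. No 2 of the capitalised matches overlapped, apart from the E-box on its own opposite strand. Of the 10 members, 7 matched an entry of the promoter table, and Ptgis, Alox5ap and Alox15 did not.

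Ptgis encodes prostacyclin synthase, which makes prostacyclin from prostaglandin H2. It was 8.26, 7.70, 7.31 and 7.75 on AT-I at day 4, against 5.36, 5.34, 5.45 and 5.91 on AT-I at day 2. The AT-II samples were at 8.57, 7.72, 6.98 and 7.47 at day 4, against 5.54, 5.30 and 6.06 at day 2, where the averaged value of 5.30 stands for arrays at 5.58 and 5.01. Every day 4 sample lay above every day 2 sample on either surface. The increase was 2.24 ± 0.29 log2 units on AT-I (SE, adjusted p = 0.000133, limma) and 2.05 ± 0.31 on AT-II (adjusted p = 0.00109). The gene passed under all 25 other settings tried on each surface, with a highest adjusted p of 0.00163 on AT-I and 0.0142 on AT-II. The array carries 2 rows for Ptgis, and the brighter one is used. The dimmer one was between 5.86 and 6.39 on AT-I at day 4, against 5.19 to 5.75 on AT-I at day 2, and between 5.80 and 6.47 on AT-II at day 4, against 5.28 to 5.60 on AT-II at day 2. Averaging both rows gave a difference of 1.41 (adjusted p = 0.000141) on AT-I and 1.36 (adjusted p = 0.000763) on AT-II.

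Ptgis moved together with markers of bone-forming cells. The mean of the 9 osteoblast markers was 10.16 to 10.80 on AT-I at day 4, against 7.14 to 8.28 on AT-I at day 2, and 10.16 to 10.88 on AT-II at day 4, against 7.31 to 8.67 on AT-II at day 2. Its Pearson r with Ptgis was 0.94 over the 15 samples, which are mostly separated by day, and 0.44 within groups. The 7 fibroblast and stromal markers gave 0.89 and 0.35. Of 8 endothelial markers, 1 rose on AT-I and 0 on AT-II (limma), where 0 also had an unadjusted p under 0.05. The part of cell composition in the Ptgis difference was not tested, and in these bulk samples more cells of a type and more RNA per cell cannot be told apart, nor can fewer cells of a type and less RNA per cell.

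The receptors come next. Ptger2 and Ptger4 encode EP2 and EP4, the prostaglandin E2 receptors that raise cAMP and that mediate its effects on bone formation in rodents. Ptger2 was 5.75, 6.29, 6.33 and 6.09 on AT-I at day 4, against 8.26, 7.07, 7.22 and 6.87 on AT-I at day 2. On AT-II it was 6.0, 6.89, 6.60 and 6.54 at day 4, against 7.49, 7.22 and 7.15 at day 2. All day 4 samples were lower than all day 2 samples on either surface. The fall on AT-I was -1.24 ± 0.26 log2 units (SE, adjusted p = 0.00548, limma), and -0.94 (adjusted p = 0.00872) without the day 2 samples numbered 1. It passed under all 25 other settings, with a highest adjusted p of 0.0414. On AT-II the difference of -0.78 ± 0.28 (0.583 times, 95% confidence interval -1.37 to -0.19) had an adjusted p of 0.192 and passed under 2 of 25 settings, with array weights (-0.79, adjusted p = 0.0316) and without AT-I day 2 replicate 1 (-0.78, adjusted p = 0.0357). Over the 25 settings this AT-II difference ran from -0.9 to -0.61, with an adjusted p of up to 0.558 (limma). The array's 2 rows for Ptger2 carry identical values and are no second measurement.

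Ptger2 ran against the osteoblast markers, with a Pearson r of -0.90 over the 15 samples and -0.82 within groups, and with the inducers of Ptgs2, with 0.83 and 0.70. Without the day 2 samples numbered 1 these were -0.86 and -0.82 for the osteoblast markers and 0.64 and 0.19 for the inducers. With the stromal markers Ptger2 had -0.92 and -0.85, or -0.84 and -0.61 without those samples. With the macrophage markers it had 0.04 and -0.41, or 0.84 and 0.67 without them. The part of cell composition in the Ptger2 difference was not tested. Ptger4 was the least variable member, with an SD of 0.218 over the 15 samples at percentile 28.7 of all genes. It lay between 7.57 and 8.02 on AT-I at day 4, against 7.68 to 8.04 on AT-I at day 2, and between 7.87 and 7.99 on AT-II at day 4, against 7.97 to 8.30 on AT-II at day 2. Its differences were -0.12 ± 0.13 (SE, adjusted p = 0.553, limma) and -0.22 ± 0.14 (adjusted p = 0.571).

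**Figure D2:**
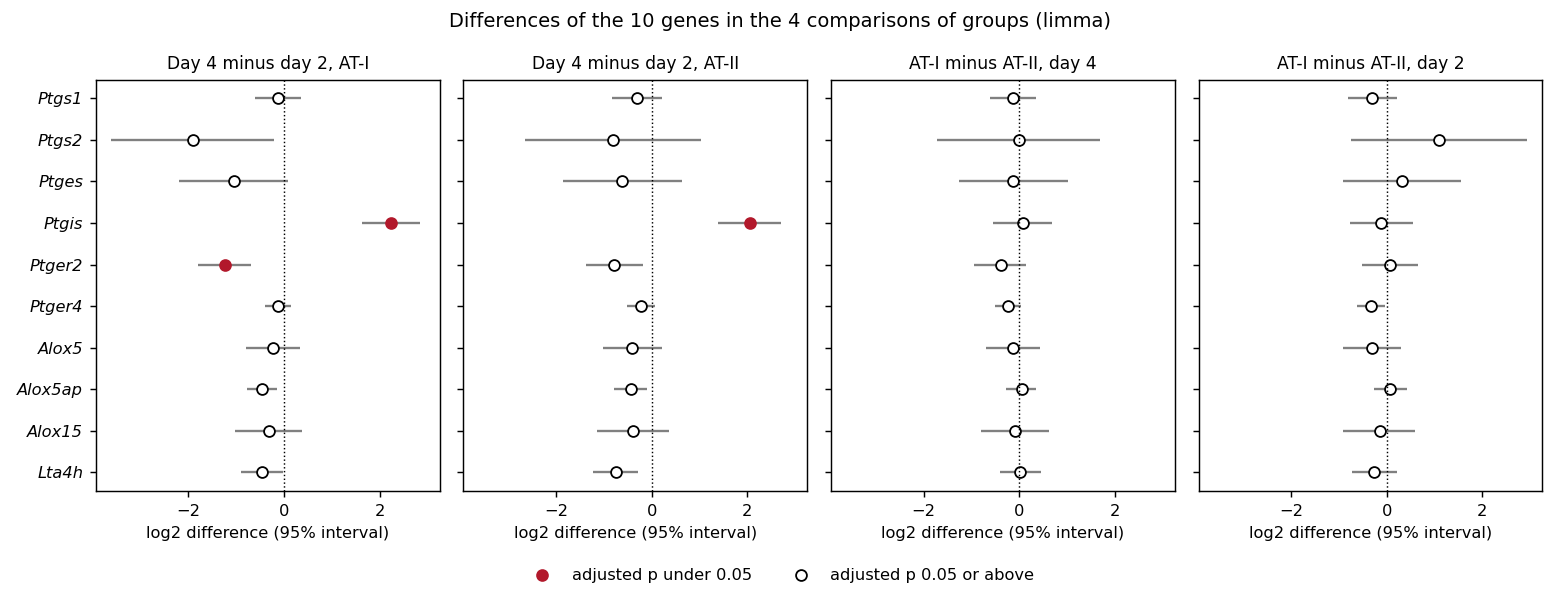
Difference of each member between day 4 and day 2 on AT-I and on AT-II and between AT-I and AT-II at each day, in log2 units, with 95% confidence intervals from limma. Ptgis lies at 2.24 and 2.05 in the panels of the days and Ptger2 at -1.24 on AT-I, while the intervals of all 10 members between the surfaces at day 4 include 0.

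In the leukotriene branch, Alox5 encodes 5-lipoxygenase, Alox5ap the membrane protein that presents arachidonic acid to it, and Lta4h the hydrolase that makes leukotriene B4. Alox5 and Alox5ap are typical of neutrophils and other myeloid cells, while Lta4h is expressed more widely. Alox5ap was 11.23, 11.40, 11.09 and 11.05 on AT-I at day 4, against 12.07, 11.69, 11.35 and 11.50 on AT-I at day 2. On the AT-II surface it was 11.15, 11.10, 11.02 and 11.31 at day 4, against 11.73, 11.60 and 11.41 at day 2. The days overlapped on AT-I only through replicate 2 of day 4 and replicate 3 of day 2, and did not overlap on AT-II. The difference was -0.46 ± 0.15 on AT-I (SE, adjusted p = 0.0556, limma) and -0.44 ± 0.16 on AT-II (adjusted p = 0.212). On AT-I it passed under 5 of 25 other settings, among them the arrays counted separately (adjusted p = 0.043) and the leaving out of AT-I day 2 replicate 3 (-0.57, adjusted p = 0.0271). Without AT-I day 2 replicate 1, its highest sample, the AT-I difference was -0.32 (adjusted p = 0.161, limma).

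Lta4h was 10.09, 10.46, 9.77 and 9.83 on AT-I at day 4, against 10.69, 10.86, 9.99 and 10.47 on AT-I at day 2. Lta4h on AT-II was 9.99, 10.15, 9.78 and 10.14 at day 4, against 11.02, 10.93 and 10.34 at day 2. The AT-I days overlapped and the AT-II days did not. The difference was -0.46 ± 0.20 on AT-I (SE, adjusted p = 0.153, limma) and -0.75 ± 0.22 on AT-II (0.595 times, adjusted p = 0.0901, 95% confidence interval -1.22 to -0.28). On AT-II it passed under 7 of 25 settings, including the arrays counted separately (-0.79, adjusted p = 0.0273) and the omission of AT-I day 2 replicate 3 (-0.75, adjusted p = 0.0481) or of replicate 4 of AT-II at day 2 (-0.96, adjusted p = 0.0319). Over the 25 settings the AT-II difference ran from -0.96 to -0.62, with an adjusted p of up to 0.409 (limma).

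Alox5 lay between 7.61 and 8.29 on AT-I at day 4, against 7.22 to 8.72 on AT-I at day 2, and between 7.91 and 8.30 on AT-II at day 4, against 8.14 to 8.85 on AT-II at day 2. The days overlapped, with differences of -0.22 ± 0.26 (SE, adjusted p = 0.596, limma) on AT-I and -0.40 ± 0.29 (adjusted p = 0.639) on AT-II. These 3 genes followed the mean of the 11 neutrophil markers, with a Pearson r over the 15 samples of 0.83 for Alox5, 0.84 for Alox5ap and 0.87 for Lta4h, and of 0.90, 0.79 and 0.92 within groups. Other lists gave values of similar size: Alox5ap had -0.93 and -0.82 within groups with the stromal markers. With the platelet markers Alox5 had 0.83 and 0.82, and Lta4h had 0.83 and 0.88. With 5 eosinophil markers Lta4h had 0.68 and 0.87. Without the day 2 samples numbered 1, Alox5ap had -0.84 and -0.51 with the stromal markers and 0.82 and 0.90 with the neutrophil markers. The neutrophil mean was 10.43 to 11.04 on AT-I at day 4, against 10.59 to 11.26 on AT-I at day 2, and 10.52 to 10.81 on AT-II at day 4, against 10.66 to 11.22 on AT-II at day 2. Of these markers 1 of 11 fell on AT-I, Csf3r, and 0 on AT-II (limma). At an unadjusted p under 0.05 (limma) there were 4 on AT-I and 3 on AT-II. The part of cell composition in the leukotriene genes was not tested.

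Alox15 encodes the 12/15-lipoxygenase, which in rabbit reticulocytes takes part in the breakdown of mitochondria and in other cells makes precursors of resolving lipid mediators. It was 10.82, 11.32, 10.23 and 10.71 on AT-I at day 4, against 11.10, 11.63, 10.31 and 11.34 on AT-I at day 2. Alox15 on AT-II was 11.09, 9.81, 11.20 and 11.32 at day 4, against 11.41, 11.32 and 11.02 at day 2. The days overlapped on both surfaces, and replicate 2 of AT-II day 4 stood apart at 9.81. The difference was -0.32 ± 0.33 on AT-I (SE, adjusted p = 0.533, limma) and -0.39 ± 0.36 on AT-II (adjusted p = 0.726), and -0.04 on AT-II without that sample. Alox15 followed the mean of 7 erythroid markers, with a Pearson r of 0.93 over the 15 samples and 0.92 within groups, and that mean was 10.18 in the same sample, against 10.97 to 11.43 in the other AT-II day 4 samples. That sample also had the lowest mast cell mean of its group (6.63) and the highest smooth and skeletal muscle means (7.39 and 7.09). The r of Alox15 with these lists was 0.54, -0.57 and -0.51 over the 15 samples. Within groups it was 0.76, -0.77 and -0.74. Ptgs1 followed the mean of 6 platelet and megakaryocyte markers, with an r of 0.91 over the 15 samples and 0.93 within groups. Other lists came near this for Ptgs1: eosinophil markers gave 0.83 and 0.89, neutrophil markers 0.76 and 0.86, and endothelial markers 0.65 and 0.79. The part of cell composition in the levels of Alox15 and Ptgs1 was not tested.

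**Figure D3:**
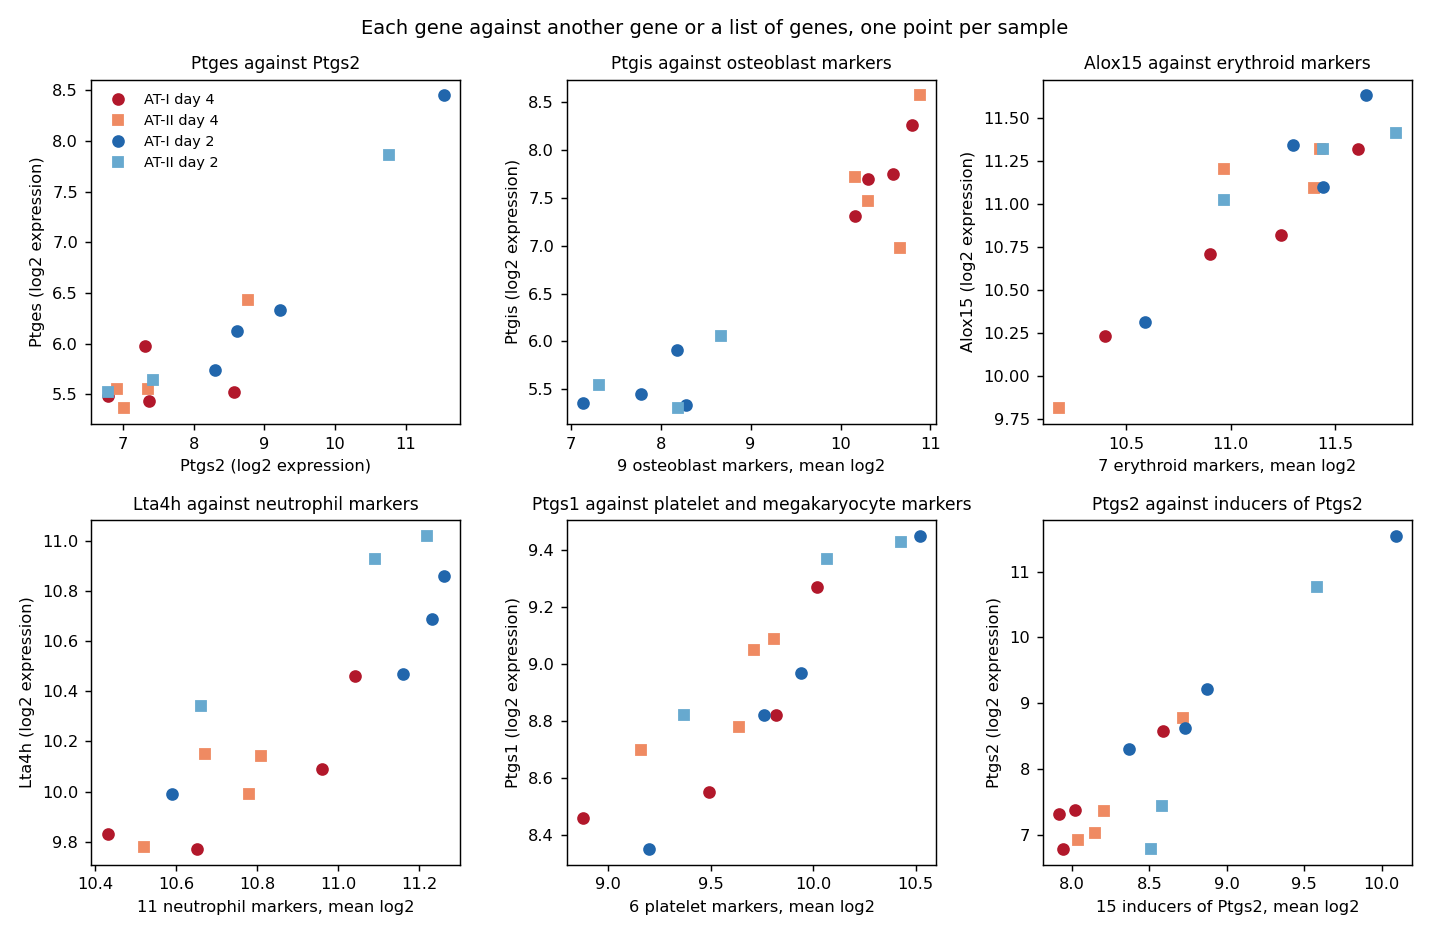
Log2 expression of members (vertical axes) against the mean log2 expression of a marker or gene list in the same sample, or of Ptges against Ptgs2 (horizontal axes), with day 4 and day 2 and both surfaces marked. Each panel holds the 15 samples. Ptgis separates by day along the osteoblast axis, Alox15 lies along the erythroid axis with r = 0.93, and the points of Ptgs2 at the right end of the inducer axis are the day 2 samples numbered 1.

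Between the surfaces, 0 of 10 members passed at day 4 and 0 at day 2 (limma), where 0% of all genes passed at either day. At an unadjusted p under 0.05 the counts were 0 of 10 members at day 4, where 3.98% of all genes lay below it, and 1 of 10 at day 2, where 27.3% did. The AT-I and AT-II samples were free of overlap for 0 of 10 members at day 4, against 2.2% of all genes (0.789% higher and 1.41% lower on AT-I), and for 0 of 10 at day 2, against 20.2% (8.83% higher and 11.3% lower). Since each rat bore both surfaces and no label links samples to rats, these tests treat the samples of a day as independent. With all 16 arrays counted separately 12.7% of all genes passed at day 2, and still 0 of 10 members. The single member with a small unadjusted p was Ptger4 at day 2, at 7.71, 8.04, 7.68 and 7.92 on AT-I and 8.23, 8.30 and 7.97 on AT-II. Its surface difference was -0.33 ± 0.14 log2 units (SE, unadjusted p = 0.0307, adjusted p = 0.158, limma).

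These intervals also bound the differences that could have gone unseen. For Ptgs2 the surface difference at day 2 was 1.1 ± 0.86 log2 units, with a 95% confidence interval from -0.74 to 2.93, and at day 4 it was -0.01, with an interval from -1.71 to 1.69. The day 2 value depended on single samples. It was 0.32 without AT-II day 2 replicate 4, 0.39 without AT-I day 2 replicate 1, 0.65 when the averaged pair was left out and 2.31 when replicate 1 of AT-II was. Without both samples numbered 1 it was 1.61 (adjusted p = 0.16, limma), and it passed under none of the 25 other settings, the lowest adjusted p being 0.0561. For Ptgis the intervals were -0.77 to 0.54 at day 2 and -0.54 to 0.68 at day 4. For Ptger2 the day 4 interval ran from -0.94 to 0.15. The change by day differed between the surfaces for 0 of 10 members (limma interaction, 0% of all genes), 0 of 10 also at an unadjusted p under 0.05, where 4.1% of all genes lay below it. The interaction was -1.1 ± 1.18 for Ptgs2 (-1.62 without both day 2 samples numbered 1, and -2.32 to -0.33 on omission of single samples), 0.19 ± 0.42 for Ptgis and -0.46 ± 0.38 for Ptger2, so the fall of Ptger2 on AT-I is not shown to differ from that on AT-II.

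For each member the 3 genes with the most similar pattern were taken by Pearson r over the 15 samples, among 3851 genes with enough signal and spread (3852 for Ptger4). Ptgis ran closest to Loxl4 (0.978), Col11a2 (0.976) and Ptprk (0.974), the first a lysyl oxidase family member and the second a collagen chain. Ptgs2 ran closest to Cxcl1 (0.973), a neutrophil chemokine, Osm (0.964), encoding oncostatin M, and Nos2 (0.963), the inducible nitric oxide synthase. Ptges ran closest to Nfkbiz (0.966), Ccrl2 (0.964) and Ddit4 (0.961), and Ptger2 to Ier5 (0.958), Emilin2 (0.956) and Slfn2 (0.951).

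Ptgs1 ran closest to P2rx1 (0.971), an ATP-gated channel of platelets, Plxna4 (0.964) and F5 (0.953), encoding coagulation factor V. The closest genes of Alox5 were Cd177 (0.963), a neutrophil surface protein, Megf9 (0.959) and C3 (0.958). For Alox5ap they were Csf3r (0.966), the receptor of a neutrophil growth factor, Gpr84 (0.958) and Plek (0.956). Lta4h was nearest to Msra (0.967), Cebpe (0.967), a granulocyte transcription factor, and Anxa3 (0.96). Alox15 was nearest to Tent5c (0.972), Cdc25b (0.967) and Mkrn1 (0.961), and Ptger4 to Zfp367 (0.92), Pex6 (0.918) and Agap2 (0.898). These coefficients share the arrays and the separation by day. Those of Ptgs2, Ptges, Ptger2 and Alox5ap also share the 2 day 2 samples numbered 1, which were the highest for each of these genes.

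Other genes of the pathway were grouped in 7 lists, of which 73 of 78 genes were measured. By day 4, 4 of 73 rose and 6 fell on AT-I, where 8.84% and 2.66% of all genes did, and 2 rose and 1 fell on AT-II, where 3.13% and 0.203% did. Their median difference was -0.21 on AT-I and -0.16 on AT-II, against -0.05 for all genes. The 8 phospholipase genes listed under arachidonate release, not all of which are known to release it, had medians of -0.08 on AT-I and -0.14 on AT-II. Among them Pla2g5, a secreted phospholipase A2, rose on both surfaces. It was 8.15, 7.44, 6.98 and 8.56 on AT-I at day 4, against 5.99, 6.41, 6.25 and 6.50 on AT-I at day 2, and 8.51, 7.34, 8.28 and 7.72 on AT-II at day 4, against 6.04, 6.21 and 6.49 on AT-II at day 2. The days did not overlap on either surface, and the increase was 1.49 ± 0.30 (2.82-fold, adjusted p = 0.00446, limma) on AT-I and 1.71 ± 0.33 (3.28-fold, adjusted p = 0.00642) on AT-II. Without AT-II day 2 replicate 1 the AT-II value was 1.61, with an adjusted p of 0.0527. Pla2g4a, the cytosolic phospholipase A2 that supplies the cyclooxygenases, fell on AT-II by 0.40 ± 0.10 (adjusted p = 0.0419), and was -0.23 ± 0.09 on AT-I (adjusted p = 0.131). Its call on AT-II held under 13 of 25 settings and ended without AT-II day 2 replicate 1 (-0.38, adjusted p = 0.198) and under most other single-sample omissions.

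Among 13 other genes listed under prostanoid synthesis and breakdown, with medians of 0.05 on AT-I and -0.1 on AT-II, Ptgfrn alone rose on AT-I, by 1.01 ± 0.21 (2.02-fold, adjusted p = 0.0056, limma), and was 0.73 ± 0.23 on AT-II (adjusted p = 0.117). It encodes no enzyme of synthesis or breakdown but a protein that inhibits binding to the prostaglandin F2 alpha receptor. The receptor itself, Ptgfr, was the 1 gene of 6 other prostanoid receptors that rose, by 1.03 ± 0.15 on AT-I (2.05-fold, adjusted p = 0.000366). Ptgfr was 6.25, 6.79, 6.35 and 6.54 on AT-I at day 4, against 5.31, 5.45, 5.23 and 5.80 on AT-I at day 2, and 6.27, 6.41, 6.61 and 6.56 on AT-II at day 4, against 6.20, 6.18 and 5.93 on AT-II at day 2. The AT-I day 2 samples were the lowest of the 4 groups, and the difference on AT-II was 0.36 ± 0.16 (adjusted p = 0.355). The interaction was 0.68 ± 0.22 (unadjusted p = 0.0076, adjusted p = 0.924), so a different response of the surfaces was not shown.

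Among 12 other leukotriene and lipoxygenase enzymes, 3 fell on AT-I and 0 on AT-II, where 2 of 12 had an unadjusted p under 0.05 (limma). All 12 differences were negative on AT-I, with a median of -0.42, and 9 of 12 on AT-II, with a median of -0.22. Cyp4f1, of a family that inactivates leukotriene B4, fell by 0.58 ± 0.12 (adjusted p = 0.00627, limma) and held in all 24 settings. On AT-II it was 0.12 ± 0.13 (adjusted p = 0.792), and the interaction of -0.70 ± 0.18 had an unadjusted p of 0.00145 and an adjusted p of 0.924. Alox12b fell by 0.51 ± 0.13 (adjusted p = 0.0219), and was -0.35 ± 0.14 on AT-II (adjusted p = 0.285). On AT-I its adjusted p was 0.0588 or 0.067 when replicate 1 or 4 of day 2 was left out, and 0.0741 or 0.0554 when replicate 1 or 4 of day 4 was. It passed under 16 of 24 settings, and repeated quantile normalization gave -0.30 (adjusted p = 0.184). Alox15b fell by 0.39 ± 0.12 (adjusted p = 0.0466) and held in 8 of 24 settings, ending without any single AT-I day 2 sample and without 8 others of the single samples, where its adjusted p reached at most 0.122. Repeated quantile normalization gave -0.21 (adjusted p = 0.254) and the array interquartile range as a covariate -0.27 (adjusted p = 0.202). All 3 lay below 6 on the log2 scale in every sample, as did Aloxe3, Dpep1, Ephx2 and Ltc4s of the same list. Dim genes of other lists differed on AT-I in either direction or hardly at all, and those named here did not pass (limma). Mean Areg was 5.38 at day 4 against 5.68 at day 2, Pla2g10 5.05 against 5.46, Hpgd 5.73 against 5.42 and Ptger1 5.51 against 5.48. The part of low signal in the negative differences of this list was not tested. Of 7 leukotriene and resolvin receptors none passed on either surface (limma), with medians of -0.16 on AT-I and -0.14 on AT-II. At an unadjusted p under 0.05 there were 1 on AT-I and 0 on AT-II. The one was Ltb4r, a leukotriene B4 receptor, at -1.11 ± 0.51 (unadjusted p = 0.0469, adjusted p = 0.172), and on AT-II the smallest p was that of Fpr2 (-0.45 ± 0.23, adjusted p = 0.435).

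Among 15 genes listed as inducers of Ptgs2, 3 fell on AT-I and 0 on AT-II (limma), with medians of -0.67 and -0.45. On AT-II 4 of them had an unadjusted p under 0.05 (limma). Cd14, the co-receptor for bacterial lipopolysaccharide, fell by 0.67 ± 0.15 (adjusted p = 0.0078, limma) on AT-I and was -0.45 ± 0.16 on AT-II (adjusted p = 0.179). Cebpb, a transcription factor of the C/EBP family, fell by 1.38 ± 0.34 (adjusted p = 0.0158), with an adjusted p of 0.0505 without AT-I day 4 replicate 4. Tlr2, a receptor of bacterial lipoproteins, fell by 0.89 ± 0.23 (adjusted p = 0.0214), with 0.0623 without AT-I day 4 replicate 1. The interquartile range covariate also ended the calls of Cebpb (adjusted p = 0.0706) and Tlr2 (0.0604), as did comparing the groups alone (0.0593 and 0.0953). Among 12 genes induced by cAMP downstream of EP2 and EP4, with medians of -0.29 on AT-I and -0.07 on AT-II, 1 rose on each surface. Nr4a2, an orphan nuclear receptor, rose by 0.69 ± 0.16 on AT-I (adjusted p = 0.00893) and by 0.70 ± 0.17 on AT-II (adjusted p = 0.0304), the last ending without AT-II day 2 replicate 1 (0.53, adjusted p = 0.227) and on omission of each of 4 other AT-II samples (adjusted p from 0.0519 to 0.0878). The AT-II call also ended with quantile normalization repeated (0.61, adjusted p = 0.109) and with the compared groups alone (adjusted p = 0.081), and the AT-I call with the interquartile range as a covariate (0.49, adjusted p = 0.0655). None of the 73 genes passed between the surfaces at either day or in the interaction (limma), and 3 at day 4, 14 at day 2 and 4 in the interaction had an unadjusted p under 0.05, where 3.98%, 27.3% and 4.1% of all genes did. With the arrays counted separately 6 of 73 passed between the surfaces at day 2, where 12.7% of all genes did.

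The gene with the smallest p in each list between AT-I and AT-II at day 2 was Ptgfr (-0.66 ± 0.16, adjusted p = 0.128, limma), Cyp4f1 (0.47 ± 0.13, adjusted p = 0.128), Ptgr2 (-0.72 ± 0.21, adjusted p = 0.128), Cysltr1 (-0.79 ± 0.29, adjusted p = 0.134), Areg (0.29 ± 0.11, adjusted p = 0.139), Pla2g10 (0.48 ± 0.20, adjusted p = 0.159) or Rela (-0.19 ± 0.15, adjusted p = 0.381). Ptgr2 encodes a reductase that inactivates prostaglandins and Cysltr1 a receptor of the cysteinyl leukotrienes. At day 4 these were Pla2g10 (0.44), Abcc4 (-0.34), Cyp4f1 (-0.23), Per1 (-0.32), Cmklr1 (-0.53), Fos (-0.37) and Ptger3 (0.09), with adjusted p of 0.913 for all but Ptger3 (0.953). In the interaction the smallest p after Cyp4f1 and Ptgfr were those of Ptgr2 (0.66 ± 0.29), Areg (-0.25 ± 0.15), Cysltr1 (0.65 ± 0.40), Pla2g4a (0.17 ± 0.14) and Egr1 (-0.61 ± 0.54), each with an adjusted p of 0.924.

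**Figure D4:**
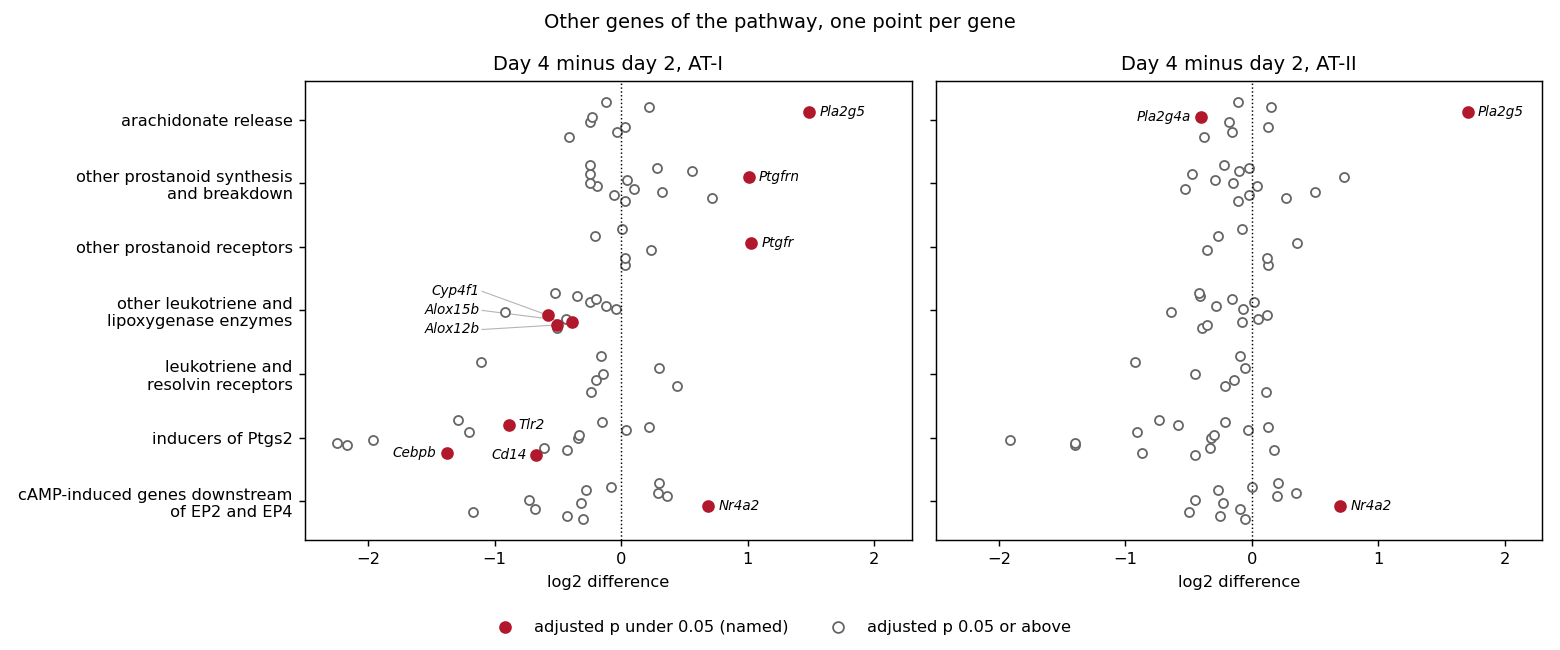
Difference between day 4 and day 2 of the 73 other pathway genes (horizontal axes, log2 units), 1 point per gene, by list, on AT-I and on AT-II. Filled points passed an adjusted p under 0.05 and are named. Pla2g5 lies farthest to the right on both surfaces, and the 12 other leukotriene and lipoxygenase enzymes all lie left of 0 on AT-I. Several of these enzymes were dim, below 6 on the log2 scale in every sample.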

How the data were processed

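Each RNA sample was run on 1 Affymetrix Rat Gene 1.1 ST array (16 arrays), as the labels' protocols state. For the deposited log2 values, the submitters' processing notes name RMA and Affymetrix Expression Console. Base 2 is inferred from the use of RMA. RMA compresses differences of dim probes, so folds of low genes may be understated. The authors' genome build is not given in the sources used here.

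Of 29214 rows, 18644 name 1 gene, 962 several and 9608 none, and the brightest row stood for each of the 879 genes with several rows. The GRCr8 table held 18460 of the named rows by gene identifier. Groups came from the sample titles. In R 4.3.3, limma 3.58.1 (lmFit, eBayes, group means, two-sided, no covariate, 11 residual and 4.44 prior degrees of freedom) tested 17245 genes, checked on simulated data. Exact permutation tests over samples and Dixon's test for outlying samples were also run in R. Python 3.11.15 served for naming rows, the promoter search and the figures. Promoter sequences are from RefSeq. All 10 members are described. Related genes are named where they passed (up to 4 per list and comparison), and otherwise by the smallest p of the list. Likeness used a mean of at least 6 and an SD of at least 0.3. The members, lists and tests were chosen with earlier results of these data known. Altogether 25 other settings were run, 15 of them leaving out 1 sample. The replicate block joined samples by number. Between the days it joined samples of different rats, so there it is no pairing of animals. Same-numbered samples of the 2 surfaces did not deviate together in every pair, so numbers were not taken as pairs in the main fit.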

Additional observations from a re-analysis of the deposited data

Results flagged for a closer look

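The lowest or highest sample of a group stood apart by Dixon's test in 2 of 30 groups of 4 samples examined, where chance gives about 1 in 20. Ptges in AT-I day 4 replicate 3 was 5.98, against 5.43 to 5.52 in the other samples of its group. Alox15 in AT-II day 4 replicate 2 was 9.81, against 11.09 to 11.32 in the others.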

How the results depend on the processing

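Of the members that passed, Ptgis on both surfaces and Ptger2 on AT-I kept direction and threshold under all 25 other settings. On AT-II the count of members passing was 1, and became 2 with all 16 arrays counted separately, with the replicate block, with arrays centred on their median and with array interquartile range as a covariate, and 3 with array weights; leaving out 1 sample gave 1 to 2, with 2 on omission of replicate 1 or 3 of AT-I day 2 or of replicate 4 of AT-II day 2. Other member counts stayed within 1.5 times. Same-numbered samples deviated together with r of 0.13, -0.34, 0.47 and 0.2 at day 4 and 0.64, 0.51, -0.26 and 0.15 at day 2, and not every sample correlated best with its own number. Genes passing, 1983 on AT-I, were 1314 with the interquartile range, 1060 with the groups alone and 1158 without AT-I day 4 replicate 4. The 575 on AT-II became 919 with the block, 1228 with array weights, 223 without replicate 1 of AT-II day 2, 294 when the averaged pair was left out, 312 or 354 without AT-II day 4 replicate 1 or 3, and 334 without both day 2 samples numbered 1, a setting chosen after seeing the data. Between surfaces at day 2, 0 became 2193 with 16 arrays, 3823 with the block, 3713 with weights, 1 with quantile normalization and 711 without AT-I day 2 replicate 2. Other pathway genes passing on AT-I, 10, were 16 with the block, 18 centred, 6 with the interquartile range or the groups alone and 16 without AT-I day 4 replicate 3. Their 3 on AT-II were 7 with weights, 5 without AT-I day 2 replicate 1, 0 without replicate 1 of AT-II day 2, and 1 on omission of replicate 1, 3 or 4 of AT-II day 4 or of both day 2 samples numbered 1. Their 0 between surfaces at day 2 were 6 with 16 arrays, 11 with the block, 9 with weights and 1 without AT-I day 2 replicate 2. The cause of these shifts was not tested. The 3 or 4 samples per group limit the precision.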
